A study of Mus musculus with 6 samples.

Results

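The 9 genes described here encode receptors that sense microbial products and cell damage. They are the Toll-like receptor genes Tlr1, Tlr2, Tlr3, Tlr4, Tlr7, Tlr9 and Tlr13 and the inflammasome sensor genes Nlrp3 and Aim2, chosen by name from the 32285 genes of the deposited matrices. The UMIs of each gene (unique molecular identifiers, which mark single captured RNA molecules) were summed per library over neutrophils, monocyte subsets, macrophages, dendritic cell subsets and B cells. These made up 27954 of the 51633 cells that had at least 250 genes and at most 5% mitochondrial UMIs. The study asked how inhibitors of glycan synthesis change the response of mouse ovarian tumors to PD-L1 blockade, and 6 droplet libraries were sequenced, each from 1 mouse of another treatment. All 6 mice were female C57BL/6 animals, 6 to 8 weeks old at injection, that carried, in 1 ovarian bursa, KPCA ovarian cancer cells of the mouse. This line is proficient in homologous recombination, and its alterations include mutant Trp53 and raised Ccne1 and Akt2. The groups were a control given solvent and rat IgG, 2-Deoxy-D-glucose (2DG), 2F-Peracetyl-Fucose (2FF), an antibody to PD-L1 (anti-PD-L1), and this antibody with either drug, called 2DG plus anti-PD-L1 here for the first and 2FF plus anti-PD-L1 for the second. By the study's methods, 2DG (injected) and 2FF (by gavage) were given every 2 days, anti-PD-L1 was given 2 times per week for 3 weeks from day 9, 2DG also began on day 9, and the mice were killed on day 30. The tumor cells injected into the 2FF groups had been pretreated with 2FF, so those groups differ from the control in the cells as well as in the drug. The methods describe orthotopic tumors, whereas the labels name lymph node and the series text speaks of young and aged mice. Only 37 of all cells carried the markers of keratin-positive tumor cells.

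Toll-like receptors span the cell surface or the endosome membrane and signal through the adapters MyD88 and TRIF to NF-kappa-B and interferon regulatory factors. At the surface, TLR2 paired with TLR1 or TLR6 binds bacterial lipopeptides and TLR4 with MD-2 and CD14 binds lipopolysaccharide, while TLR3, TLR7, TLR9 and TLR13 read double-stranded RNA, single-stranded RNA, unmethylated CpG DNA and bacterial ribosomal RNA in endosomes. NLRP3 responds to membrane damage and ion flux and AIM2 to cytosolic double-stranded DNA, and both assemble with the adapter ASC to activate caspase-1, which matures interleukin-1-beta and opens gasdermin D pores.

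In the GRCm38 assembly, all 9 are protein-coding genes. Tlr1 lies at chr5:64924679-64933563 and Tlr2 at chr3:83836272-83841767, both on the minus strand, and Tlr4 at chr4:66827584-66930284 on the plus strand. The endosomal receptors lie at chr8:45395665-45411080 (Tlr3, minus), chrX:167304929-167330558 (Tlr7, minus), chr9:106222598-106226883 (Tlr9, plus) and chrX:106143204-106160493 (Tlr13, plus). Nlrp3 lies at chr11:59541568-59566956 and Aim2 at chr1:173350879-173466040, both on the plus strand. Aim2 overlaps Cadm3 and Tlr3 overlaps the antisense gene Gm45542, each on the opposite strand. Tlr1 is a close relative of Tlr6, and where such copies are alike their reads are hard to assign, so the level of Tlr1 is uncertain to that extent.

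Promoters of genes that peaked in the same cells were searched for shared letters. Tlr4 also peaked in neutrophils, but no RefSeq window was held for it, so it is missing from this set. Nlrp3, Tlr13 and Tlr2 were each highest in neutrophils, and the 250 bases before one start site of each are printed here from RefSeq (GRCm38.p6), 5′ to 3′ on the strand of the gene, with capitals marking the letters GAGGAAG, a core of sites bound by the myeloid factor PU.1, or their reverse complement.
Tlr13, chrX:106143025-106143274, plus strand: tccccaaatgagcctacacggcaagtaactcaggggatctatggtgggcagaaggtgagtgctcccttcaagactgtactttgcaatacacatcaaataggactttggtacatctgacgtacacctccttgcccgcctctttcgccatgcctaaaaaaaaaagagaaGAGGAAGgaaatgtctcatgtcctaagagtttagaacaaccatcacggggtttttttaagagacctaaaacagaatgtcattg
Nlrp3, chr11:59542436-59542685, plus strand: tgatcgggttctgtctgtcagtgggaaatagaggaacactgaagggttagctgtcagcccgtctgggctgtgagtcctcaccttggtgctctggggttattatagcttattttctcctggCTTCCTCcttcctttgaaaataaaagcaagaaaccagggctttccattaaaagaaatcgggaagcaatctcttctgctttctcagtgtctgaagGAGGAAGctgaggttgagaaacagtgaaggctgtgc
Tlr2, chr3:83841609-83841858, minus strand: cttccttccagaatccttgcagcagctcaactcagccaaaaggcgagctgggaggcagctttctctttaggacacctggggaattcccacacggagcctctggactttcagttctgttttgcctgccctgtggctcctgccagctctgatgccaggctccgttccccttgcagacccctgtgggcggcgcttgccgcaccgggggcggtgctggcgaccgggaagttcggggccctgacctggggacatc
The printed Nlrp3 window held 2 matches, the Tlr13 window 1 and the Tlr2 window 0. The printed Nlrp3 window lies inside the gene as placed above, before an inner start site. The Nlrp3 window that ends at the start of the gene, chr11:59541319-59541568, was not printed and held 0. On both strands, these letters were found in 10.6% of 32851 promoter windows of the same length. Of the 9 windows that the RefSeq table holds for 7 of the 9 genes, those of Aim2 and Tlr9, 1 of the windows of Tlr1 and 1 of those of Nlrp3 and that of Tlr13 contained them. The core of the interferon-stimulated response element occurred in 0 of the 9 windows and in 2.98% of all. A match is a run of letters and was not tested as a binding site.

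The cells were sorted by marker genes into 11 classes, and T cells, which as background are poor in most of these receptors, were kept beside them to show how much of each gene free RNA can bring. Between 61859753 and 73885214 UMIs were counted per library. The control library stood apart in its makeup, with 3565 neutrophils against 283 to 525 in the other 5, and 419 T cells against 1959 to 3054. Neutrophil markers also spread further in it: the 8 neutrophil markers summed to 640 CPM (counts scaled to the total of the same cells) in control T cells, which was the highest of 6 libraries with a median of 246. Plasmacytoid dendritic cells numbered 146 in all, and their sums in the control library (7 cells) and the 2FF plus anti-PD-L1 library (16 cells) were left out of the tests. Between 16 and 34 barcodes were shared by any pair of libraries, at most 0.345% of the smaller. As the libraries count the 3′ ends of transcripts, the level of a gene is compared here between cells and never with the level of another gene.

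Over the 66 pairs of the 12 classes, 330 of 528 tests of the sensor genes were called (62.5%), against 31.9% of tests over all 12642 genes. The genes were chosen with earlier results of these data known, so these shares are a description and not a test. A call needed an adjusted p under 0.05 and at least a 2-fold difference by edgeR's quasi-likelihood test with Benjamini-Hochberg adjustment over all genes, with the library as a block. Each library had another treatment, so the spread over n = 6 libraries holds treatment as well as mouse. Tlr9 had too few UMIs to be tested. By gene, Tlr4 was called in 53 of 66 pairs, Nlrp3 and Tlr13 in 51 each, Tlr3 and Tlr7 in 46 each, Tlr2 in 42, Tlr1 in 33 and Aim2 in 8. T cells were kept because they are poor in most of these receptors, so calls above them were largely set by that choice. The counts against them are given as values and not as enrichment. Against T cells, 7 of the 8 tested genes, all but Aim2, were called higher in neutrophils (24.3% of all genes), interferon-low monocytes (20.5%), interferon-high monocytes (22.3%), non-classical monocytes (18.3%), C1q macrophages (20.6%) and Spp1 macrophages (20.8%). The lymphoid and dendritic classes had fewer: 5 in type 2 dendritic cells (17.5% of all genes), 5 in B cells (11.3%), 3 in type 1 dendritic cells (15.1%), 2 in mature migratory dendritic cells (18.4%) and 2 in plasmacytoid dendritic cells (11.7%). The scaling of the fit lowers the effective library size of neutrophils (factors of 0.61 to 0.86) and raises that of T cells (1.11 to 1.17), so fitted differences of neutrophils are larger than the ratios of their CPM.

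**Figure D1:**
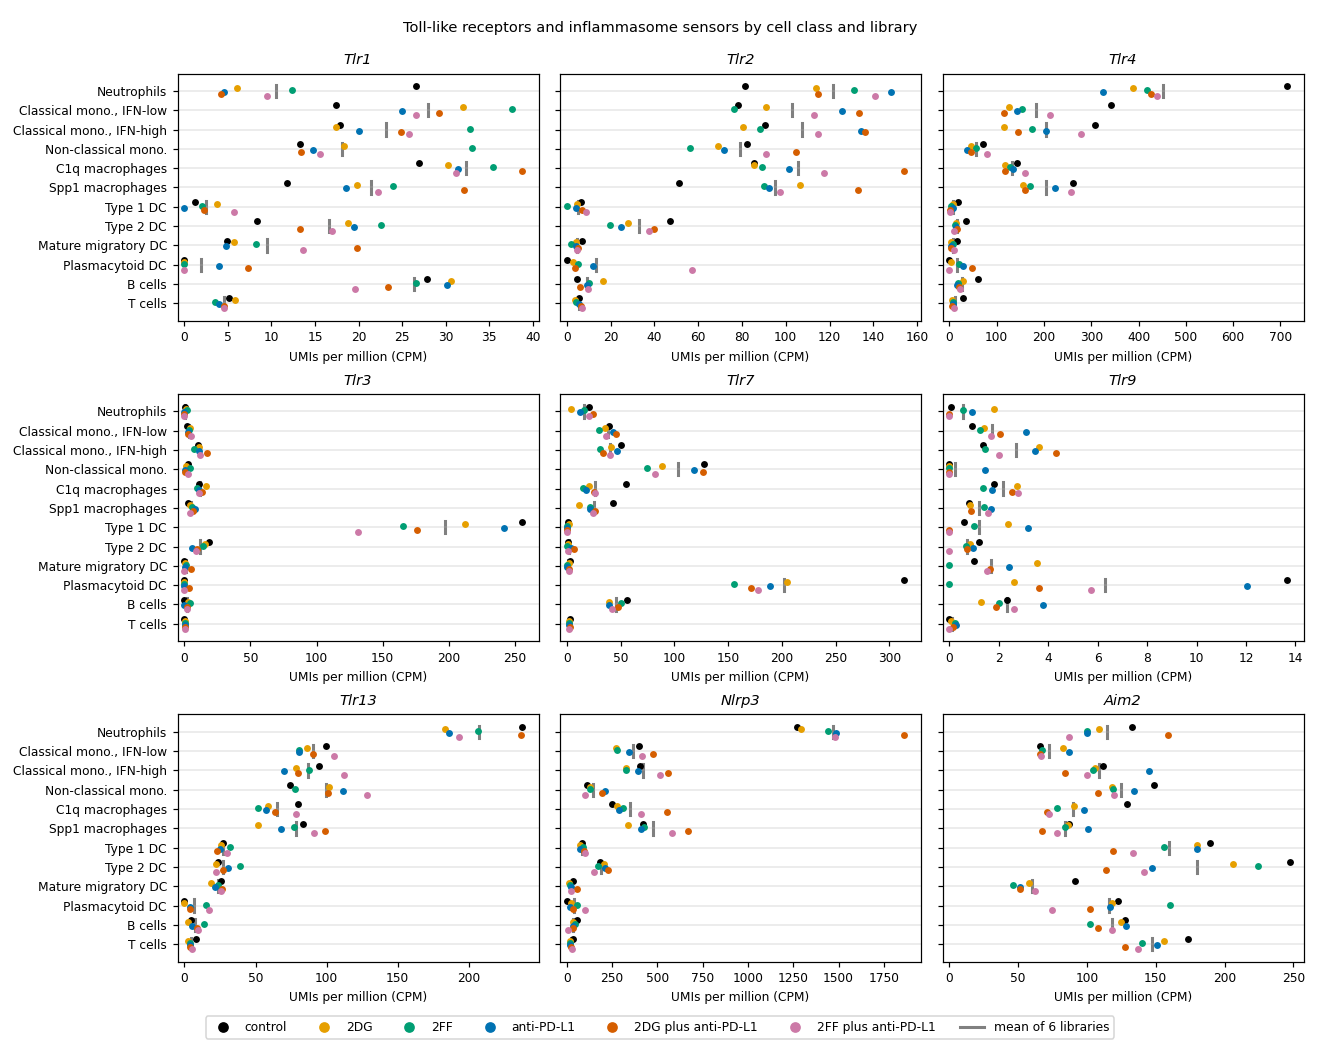
Level of each of the 9 genes (x axis, CPM, linear, own scale per gene) in the 12 cell classes (y axis). Each point is 1 of 6 libraries and each bar is their mean. Nlrp3, Tlr4 and Tlr13 are highest in neutrophils, Tlr3 in type 1 dendritic cells (197 CPM) and Tlr7 in plasmacytoid dendritic cells (202 CPM), while Aim2 is spread over all classes.

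Tlr4, the lipopolysaccharide receptor, was highest in neutrophils. Its level there ran from 325 CPM (anti-PD-L1) through a median of 423 to 713 (control), with a mean of 452 ± 135 (SD, n = 6) from 16540 UMIs. The next classes were Spp1 macrophages (204 ± 48.7), interferon-high classical monocytes (204 ± 75.7) and interferon-low classical monocytes (182 ± 85.7), and the lowest neutrophil library lay above the highest Spp1 macrophage library (262) but below the control library of interferon-low monocytes (342). Neutrophils exceeded Spp1 macrophages by 1.49 on the log2 scale (SE 0.16, adjusted p = 5.7e-12, edgeR), and without the control library by 1.40. C1q macrophages, which carry complement C1q and the mannose receptor, followed with 133 ± 16.1 CPM, and non-classical monocytes with 55.9 ± 16.3, which was 1.15 lower on the log2 scale (SE 0.18, adjusted p = 1.5e-07), where 25.7% of all genes were called. B cells held 27.5 ± 16.6 CPM, with 60.4 in the control library and 15.1 to 28.1 in the others. T cells held 11.4 ± 8.20 CPM, and their highest library was again the control (27.8, median 8.34). Type 1 and mature migratory dendritic cells stood at 6.82 ± 6.04 and 7.57 ± 4.95 CPM, and neither differed from T cells past the threshold.

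Tlr2, the lipopeptide receptor, was highest in neutrophils, with monocytes and macrophages next and overlapping ranges. Neutrophils held 81.3 CPM (control) to 148 (anti-PD-L1), with a median of 123. The means of interferon-high monocytes, C1q macrophages, interferon-low monocytes, Spp1 macrophages and non-classical monocytes lay between 79.1 and 107 CPM, and the ranges of these classes overlapped with that of neutrophils. Neutrophils exceeded interferon-high monocytes by 0.40 (log2, SE 0.14, adjusted p = 0.014, edgeR), interferon-low monocytes by 0.60, C1q macrophages by 0.71 and Spp1 macrophages by 0.75, all under the 2-fold limit. They exceeded non-classical monocytes by 1.005 (log2, SE 0.15, adjusted p = 6.6e-08, edgeR), which lay just past that limit and was called, as were 33.5% of all genes between these classes. Between neighbours in the order, the first call came at type 2 dendritic cells, which present antigen to CD4 T cells: they held 32.9 ± 10.4 CPM, 1.37 (log2) below non-classical monocytes (SE 0.17, adjusted p = 3.5e-10, with 27.4% of all genes called), and 19.9 to 47.3 CPM in single libraries against 56.2 to 105. B cells, type 1 dendritic cells and mature migratory dendritic cells were at 4.41 to 9.36 CPM, beside 5.45 ± 1.31 in T cells. The mean of 13.5 CPM in plasmacytoid dendritic cells rested on 57.3 in the library with 16 such cells.

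Tlr1, a partner of TLR2, followed another order than Tlr2. Neutrophils lay below the monocytes and macrophages in mean CPM, but not below all of them in the fit. C1q macrophages came first with 27.0 to 38.7 CPM and a median of 31.3, and interferon-low monocytes (28.0 ± 6.83), B cells (26.4 ± 4.22) and interferon-high monocytes (23.1 ± 5.87) followed. No 2 neighbours among the first 8 classes differed past the threshold. In neutrophils the level was 4.21 to 12.4 CPM in 5 libraries and 26.6 in the control, which gave 509 of the 566 UMIs. No class was called above them in the fit, where C1q macrophages were higher by 0.50 (log2, SE 0.25, adjusted p = 0.072, edgeR). The direction turned in the fit for Spp1 macrophages, at -0.03 against neutrophils (log2, SE 0.27), for non-classical monocytes, at -0.20 (SE 0.31), and for type 2 dendritic cells, at -0.44 (SE 0.30). Without the control library, neutrophils had a mean of 7.31 CPM. Spp1 macrophages then had 23.3, non-classical monocytes 19.0 and type 2 dendritic cells 18.2 CPM. B cells, where Tlr2 and Tlr4 were low, held Tlr1 at 19.6 to 30.6 CPM in every library, above all T cell libraries (3.47 to 5.79).

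Tlr3, the sensor of double-stranded RNA, was the gene most bound to 1 of the 12 classes. Type 1 dendritic cells, which cross-present antigen from dead cells, held 131 CPM (2FF plus anti-PD-L1) to 255 (control), with a median of 194 and 1510 UMIs. Every other class of the 12 had a mean of at most 12.1 CPM, reached by type 2 dendritic cells. The highest single library in these other classes was at 18.9. Keratin-positive tumor cells, which are outside the 12 classes, held 26.6 CPM, pooled over libraries (25 UMIs). Type 1 exceeded type 2 dendritic cells by 3.96 (log2, SE 0.24, adjusted p = 1.3e-21, edgeR), where 18.4% of all genes were called between these classes. After thinning each cell to 1000 UMIs, 15.8% of type 1 dendritic cells had a UMI of Tlr3 (71.9% with all UMIs), against 0.0268% of T cells (0.223% with all UMIs). Median depths were 14901 to 20529 UMIs per cell in type 1 dendritic cells and 5728 to 7555 in T cells.

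Tlr3 was also the member that separated the classical monocytes by their interferon genes. Interferon-high monocytes, which held UMIs of at least 4 of 8 interferon genes, had 6.91 to 17.3 CPM (median 11.03) and interferon-low monocytes 1.80 to 4.93 (median 3.26), without overlap. The difference was 1.98 (log2, SE 0.26, adjusted p = 1.5e-08, edgeR), and 3.61% of all genes were called between these classes. Tlr1, Tlr2, Tlr4, Tlr7, Tlr13 and Nlrp3 differed by at most 0.35 (log2), with adjusted p of 0.146 or more, and Aim2 by 0.70 (SE 0.11, adjusted p = 1.2e-06), under the 2-fold limit. The gate used interferon genes of the same cells, and 1188 of the monocytes (11.6%) lay 1 gene below the limit and 764 (7.48%) at it.

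Tlr7, the sensor of single-stranded RNA, was highest in plasmacytoid dendritic cells and non-classical monocytes. Plasmacytoid dendritic cells, the main producers of type I interferon, held 155 CPM (2FF) to 314 (control, 7 cells), with a median of 183, from 256 UMIs. Non-classical monocytes, which patrol vessel walls, held 74.6 to 128 CPM, with a median of 103. The ranges did not overlap, but the difference of 0.60 (log2, SE 0.23, adjusted p = 0.033, edgeR) was under the 2-fold limit. B cells came next with 45.7 ± 6.66 CPM, 1.32 (log2) below non-classical monocytes (SE 0.20, adjusted p = 3.5e-08), and 34.8% of all genes were called between the classes. Interferon-high and interferon-low classical monocytes held 40.4 ± 7.32 and 38.2 ± 5.60, so non-classical monocytes exceeded their classical counterparts by 1.24 and 1.43 (log2, SE 0.18 and 0.17). Of all genes, 19.5% and 13.4% were called in these comparisons. C1q and Spp1 macrophages had means of 26.4 ± 14.5 and 24.8 ± 10.2, with the control library highest in both. In the conventional dendritic subsets Tlr7 was at 0.496 to 2.26 CPM, beside 2.28 ± 0.617 in T cells.

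Tlr13, the sensor of bacterial ribosomal RNA, was also highest in neutrophils, with little spread between libraries. Neutrophils held 183 to 237 CPM with a median of 199 and a mean of 207 ± 24.5. Non-classical monocytes (99.2 ± 20.4), interferon-low (90.4 ± 10.2) and interferon-high monocytes (87.1 ± 14.7) and Spp1 macrophages (78.3 ± 16.9) formed a level group, in which no neighbours differed past the threshold. Neutrophils exceeded non-classical monocytes by 1.36 (log2, SE 0.14, adjusted p = 2.1e-13, edgeR; 33.5% of all genes called), and every neutrophil library lay above every library of the other classes. All 3 conventional dendritic classes held it at an even level, 27.5 ± 6.64 in type 2, 27.1 ± 3.33 in type 1 and 23.6 ± 3.07 CPM in mature migratory cells. They exceeded T cells (4.63 ± 2.02) by 2.74 to 2.84 (log2, SE 0.18 to 0.21), unlike Tlr2 and Tlr4, for which type 1 and mature migratory dendritic cells did not pass the threshold against T cells.

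Tlr9, the CpG DNA receptor, was barely captured. Its highest mean was 6.28 ± 5.44 CPM in plasmacytoid dendritic cells, from 7 UMIs, and B cells held 2.31 CPM from 20 UMIs. C1q macrophages gave 109 UMIs, at 2.16 CPM, and T cells were at 0.119 CPM. No order of classes can be read from these counts.

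**Figure D2:**
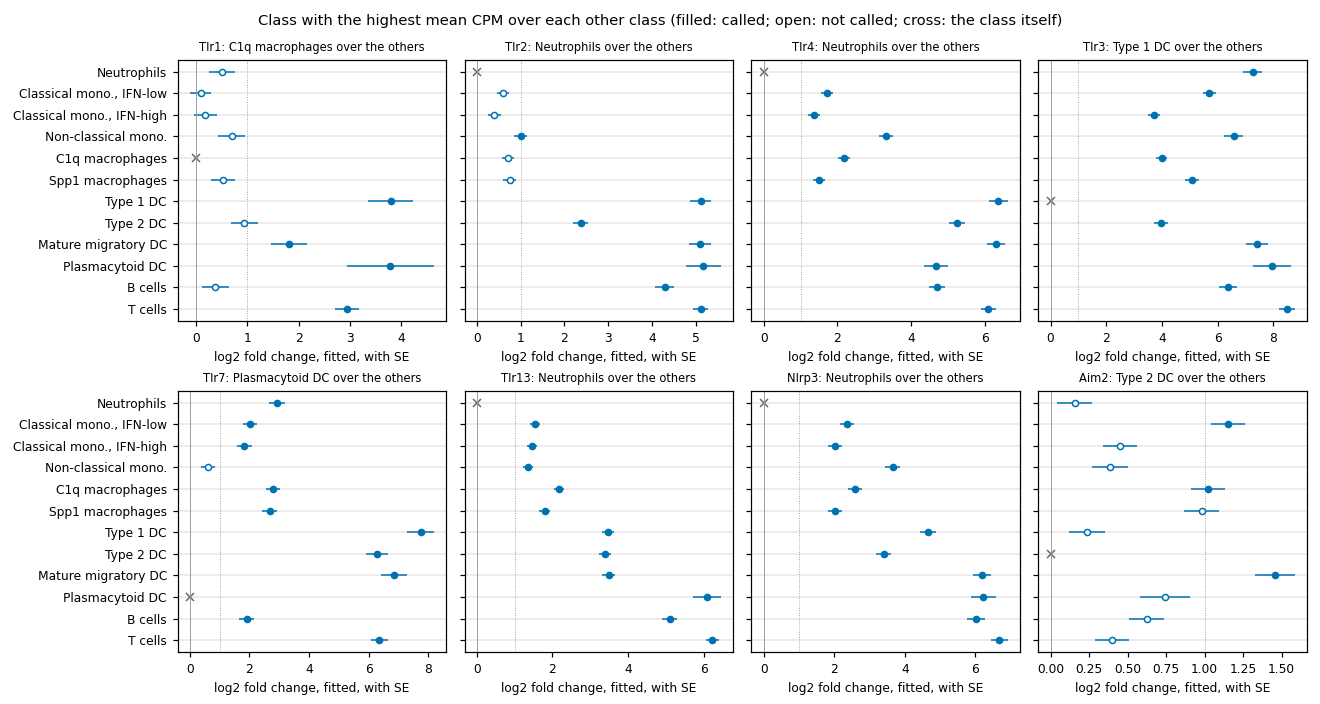
Fitted difference between the class with the highest mean and each other class for the 8 tested genes (x axis, log2, bars are SE). Filled points are called at an adjusted p under 0.05 and 2-fold. Neutrophils exceed Spp1 macrophages by 2.02 for Nlrp3 and 1.49 for Tlr4, and for Aim2 type 2 dendritic cells exceed mature migratory dendritic cells by 1.46, interferon-low monocytes by 1.15 and C1q macrophages by 1.02, its 3 filled points.

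Nlrp3 was highest in neutrophils, in every library. Levels there ran from 1272 CPM (control) through a median of 1459 to 1862 (2DG plus anti-PD-L1), from 34935 UMIs. Spp1 macrophages, the lipid-handling tumor macrophages, held 339 to 666 CPM with a median of 424, so the groups did not overlap. Neutrophils exceeded them by 2.02 (log2, SE 0.19, adjusted p = 6.9e-14, edgeR), while 37.9% of all genes were called between these classes. Interferon-high monocytes (421 ± 96.0), interferon-low monocytes (363 ± 81.9) and C1q macrophages (348 ± 114) followed, and from Spp1 macrophages down to C1q macrophages no neighbours differed past the threshold. Type 2 dendritic cells held 190 ± 28.6 CPM, type 1 dendritic cells 85.6 ± 12.2 and mature migratory dendritic cells 27.6 ± 15.9, beside 22.8 ± 8.44 in T cells. Type 2 and type 1 dendritic cells exceeded mature migratory cells by 2.78 (SE 0.25) and 1.54 (SE 0.27) on the log2 scale, with adjusted p of 1.1e-14 and 1.3e-06 (edgeR), where 28.1% and 32.7% of all genes were called. After thinning to 1000 UMIs, 62.6% of neutrophils had a UMI of Nlrp3 (81.4% with all UMIs) against 1.27% of T cells (5.21% with all UMIs), although neutrophils were the shallower cells with 2558 to 3771 UMIs per cell.

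Aim2, the sensor of cytosolic DNA, was called between few classes and was also found in lymphocytes. Type 2 dendritic cells held 114 to 247 CPM with a median of 177, type 1 dendritic cells 160 ± 28.6, and T cells 148 ± 16.2. B cells (118 ± 11.1), neutrophils (115 ± 26.5) and C1q macrophages (89.7 ± 21.8) overlapped with one another. No neighbours in the order were called, and none of the 11 classes was called above T cells. Mature migratory dendritic cells were lowest, 45.9 to 91.1 CPM with a median of 54.8, and took part in 6 of the 8 calls; T cells exceeded them by 1.06 (log2, SE 0.12, adjusted p = 2.5e-11, edgeR), and 39.7% of all genes were called between them. T cells are therefore no free-RNA reference for Aim2. The order of neutrophils and T cells depends on the scaling, since T cells were higher in CPM and neutrophils higher by 0.24 (log2, SE 0.11) in the fit.

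Genes with the most similar profile were sought over the 64 class sums of the 11 classes that had at least 20 cells, among 8192 genes. Pearson's r is given as a description, since sums of 1 library share a mouse and a depth. Cd14, the co-receptor of TLR4, was the gene most like Tlr4 (r = 0.95), and the integrin gene Itgam was most like Tlr2 (r = 0.95). For Tlr3 these were Xcr1 (r = 0.91), itself a marker of the type 1 dendritic cell gate, and Atp6v0a2, a subunit of the proton pump that acidifies endosomes (r = 0.89). Ier3 came first for Nlrp3 (r = 0.93), Dusp1 for Tlr13 (r = 0.93), Tom1 for Tlr7 (r = 0.89), Ms4a6b for Tlr1 (r = 0.81) and Prkd3 for Aim2 (r = 0.74).

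The partners of these sensors, in 6 lists of 52 genes chosen for their known roles, were called in 1782 of 3432 tests (51.9%), against 31.9% of tests over all genes. These lists too were chosen with earlier results of the data known, so the shares are a description only. Of the other Toll-like receptor genes, Tlr6, the second partner of TLR2, was highest in neutrophils (53.2 CPM), 2.24 (log2) above interferon-low monocytes (adjusted p = 8.9e-20, edgeR). Between these classes 35.5% of all genes were called. Tlr11 and Tlr12, receptors of the profilin of protozoa, were highest in type 1 dendritic cells (38.4 and 27.8 CPM), 2.84 and 4.20 (log2) above type 2 dendritic cells, and Tlr12 was also high in plasmacytoid dendritic cells (25.8 CPM). Tlr8, a relative of Tlr7, was at 39.6 CPM in non-classical monocytes, 37.9 in interferon-high monocytes and 36.1 in C1q macrophages. Tlr5, the flagellin receptor, did not exceed 6.89 CPM in any class.

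Among co-receptors and trafficking genes, Cd14 was highest in neutrophils (1056 CPM), above interferon-low monocytes (524 CPM) by 1.35 (log2, adjusted p = 1.9e-09, edgeR). Ly96, which encodes MD-2, ran from 3.40 to 35.0 CPM. Unc93b1, the chaperone that carries the endosomal receptors, was highest in plasmacytoid dendritic cells (460 CPM), then in C1q macrophages (349) and type 1 dendritic cells (291), and was at 24.2 CPM in T cells. Cd180, a receptor of B cells that resembles TLR4, was at 211 CPM in plasmacytoid dendritic cells and 172 in B cells. The adapter Myd88 was found in all classes at 19.7 to 126 CPM. Irak3, an inhibitor of MyD88 signaling, was highest in neutrophils (163 CPM) and B cells (145).

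Of the inflammasome genes, Il1b shared its leading class with Nlrp3. Neutrophils held 5609 CPM and interferon-low monocytes 1205, a difference of 2.58 (log2, SE 0.27, adjusted p = 2.4e-12, edgeR). Pycard, which encodes ASC, lay 1.35 (log2) lower in neutrophils than in interferon-low monocytes. Casp1 and Il18 were highest in interferon-high monocytes (89.2 and 85.7 CPM). Casp1 was 2.07 (log2) lower in type 1 than in type 2 dendritic cells and at 12.3 CPM in the former. Gsdmd stayed between 17.5 and 72.3 CPM. Between interferon-high and interferon-low monocytes, 5 of the 7 other nucleic acid sensors were called higher in the first (3.13% of all genes), among them Ifih1 by 1.81 and Ddx58 by 1.90 (log2), which encode the cytosolic RNA sensors MDA5 and RIG-I. These monocytes were split by interferon genes of the same cells, so the calls are not independent of the gate.

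**Figure D3:**
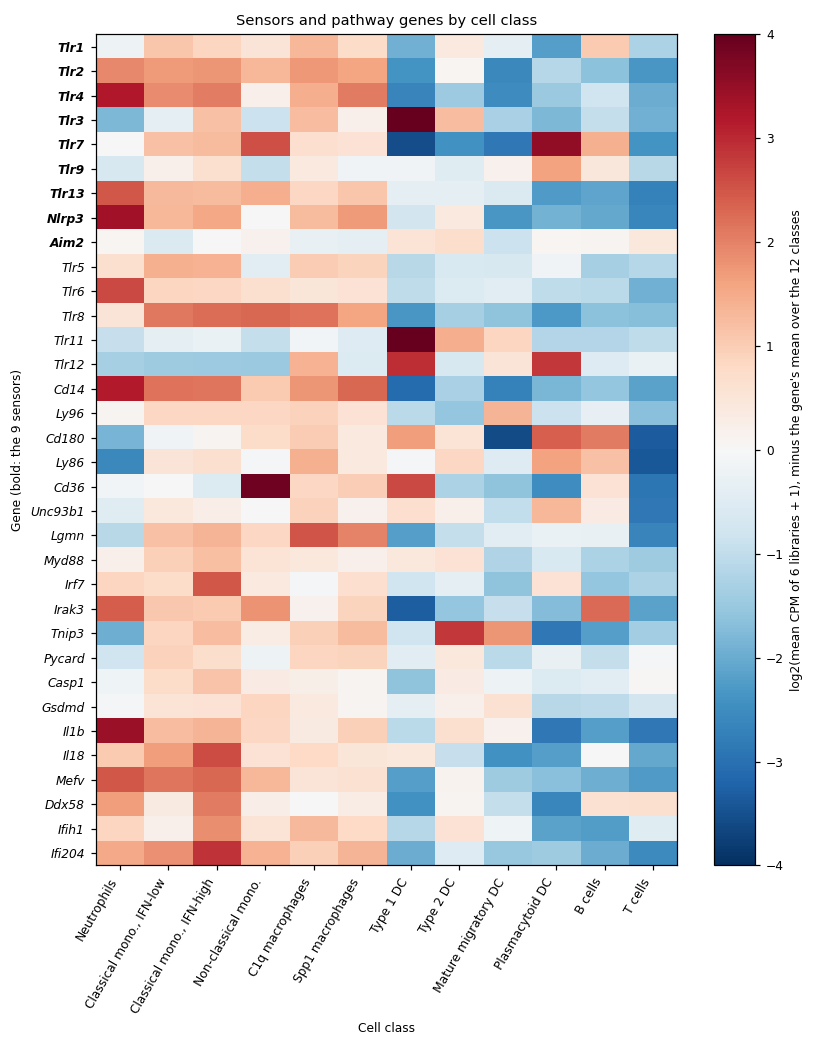
Profiles over the 12 cell classes (columns) of the 9 sensor genes (bold) and 25 genes of their pathways (rows). Colour is log2 of the mean CPM plus 1, centred on the mean of each row, so rows show where a gene is high and not how high it is. Nlrp3, Il1b, Cd14 and Tlr6 are highest in neutrophils, and Tlr3, Tlr11 and Tlr12 in type 1 dendritic cells.

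Between treatments there was 1 mouse for each, so no test was made, and ratios carry exact intervals that cover counting error only (95%). The control library serves 3 of the 7 comparisons and the anti-PD-L1 library 3, so these are not independent. The classes of a library share 1 mouse, so the counts of classes given for a gene below are not counts of replicates. No share of all genes was set beside those counts, so those of Tlr4, Tlr7, Nlrp3 and Aim2 cannot be read as particular to these genes. Of 423 gene-by-class ratios with at least 50 UMIs, 22 were past 2-fold (5.20%, with log2 of CPM + 5), against 3.67% over all genes. The share over all genes was 5.75% for 2DG against control, where 7 of 58 sensor ratios were past it, and 6.71% for 2FF against control, where 6 of 62 were. It was 5.35% for anti-PD-L1 against control, where 5 of 61 were. Against anti-PD-L1 it was 2.11% for 2DG plus anti-PD-L1 (1 of 62) and 1.59% for 2FF plus anti-PD-L1 (2 of 59), and against the single agent 2.44% for 2DG plus anti-PD-L1 (0 of 62) and 1.45% for 2FF plus anti-PD-L1 (1 of 59). Of the ratios to the control, 7 with 2DG were lower (2.68% of all genes), 5 with 2FF (3.06%) and 5 with anti-PD-L1 (2.38%).

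Tlr4 was the gene that most often differed from the control. It was lower than in the control in 7 of 7 classes with 2DG, 8 of 8 with 2FF and 7 of 7 with anti-PD-L1, with median log2 ratios of -0.87, -0.78 and -0.85. In interferon-low monocytes the control held 342 CPM and the other libraries 115 to 214, without overlap. The ratio to control was 0.369 with 2DG (0.343 to 0.395), 0.446 with 2FF (0.420 to 0.473) and 0.418 with anti-PD-L1 (0.395 to 0.443), where 5.88%, 5.87% and 6.15% of all genes were past 2-fold. In interferon-high monocytes the control held 307 CPM and the 2DG library 115, while the 2FF plus anti-PD-L1 library was close to the control with 279. In neutrophils the control held 713 CPM and the other libraries 325 to 439, and the ratio with anti-PD-L1 was 0.456 (0.409 to 0.506), although by the share of cells thinned to 1000 UMIs it was -0.69 (log2) and not past 2-fold. In type 2 dendritic cells the control held 35.5 CPM against 9.90 to 16.8.

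The 8 neutrophil markers were also summed in the other classes of the control library. They came to 1122 CPM in its interferon-low monocytes and 1381 CPM in its interferon-high monocytes. The amounts below take all these UMIs as neutrophil RNA, with the proportion of Tlr4 to the markers in control neutrophils. That assumption was not tested. Under it, 15.4 CPM of Tlr4 would be carried into interferon-low monocytes (of 342) and 19.0 into interferon-high monocytes (of 307). The amount would be 8.80 CPM in T cells (of 27.8) and 5.98 in B cells (of 60.4). In type 2 dendritic cells the amount would come to 20.6 CPM (of 35.5). The markers summed to 1224 to 1663 CPM in these cells in all 6 libraries, with 1499 in the control. Whether carried RNA accounts for the control levels was not tested.

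Tlr7 was lower than in the control in 7 of 7 classes with 2DG, 7 of 7 with 2FF and 6 of 7 with anti-PD-L1. The median log2 ratios were -0.51, -0.63 and -0.46. The macrophages were among these classes. In C1q macrophages the control held 54.7 CPM and the other 5 libraries 14.7 to 25.7, with ratios to control of 0.377 with 2DG (0.312 to 0.454), 0.268 with 2FF (0.222 to 0.323) and 0.321 with anti-PD-L1 (0.255 to 0.400); of all genes in these cells, 3.25%, 4.82% and 3.5% were past 2-fold. In Spp1 macrophages it was 42.9 CPM in the control, 11.6 with 2DG and 21.9 to 26.3 in the rest. In interferon-low monocytes of the same mice the control lay within the range of the others, at 39.0 CPM against 29.8 to 45.6. In neutrophils the 2DG library was lowest, with 3.60 CPM from 6 UMIs, against 12.6 to 24.2 in the other libraries.

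Nlrp3 was highest in the 2DG plus anti-PD-L1 library in neutrophils (1862 CPM), C1q macrophages (552), Spp1 macrophages (666), interferon-high monocytes (558) and interferon-low monocytes (477). It was above the 2DG library in 9 of 9 classes (median log2 ratio 0.60) and above the anti-PD-L1 library in 9 of 10 (median 0.42). Only 1 of these ratios was past 2-fold, that of mature migratory dendritic cells against anti-PD-L1 at 2.41 (1.43 to 4.10), from 34 and 29 UMIs. The 2FF plus anti-PD-L1 library was low in 2 other classes: B cells held 5.24 CPM (8 UMIs) against 34.0 with anti-PD-L1 and 44.1 with 2FF, and non-classical monocytes 98.5 CPM against 209 with anti-PD-L1, a ratio of 0.471 (0.392 to 0.565).

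Aim2 was lower in the 2DG plus anti-PD-L1 library than with anti-PD-L1 alone in 10 of 11 classes and than with 2DG alone in 10 of 11, with median log2 ratios of -0.36 and -0.31 and none past 2-fold. In type 2 dendritic cells it was 247 CPM in the control, 206 with 2DG and 224 with 2FF, and 147, 114 and 141 in the 3 libraries with anti-PD-L1. Tlr2 was past 2-fold in 1 ratio, type 2 dendritic cells with 2FF against control (19.9 and 47.3 CPM). Tlr1 was past it in neutrophils with 2DG (10 UMIs) and with anti-PD-L1 (5 UMIs, 4.52 CPM) against 26.6 CPM in the control, and in non-classical monocytes with 2FF, where 33.0 CPM stood against 13.3 from 5 UMIs in the control.

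A grouping chosen after seeing the data set the 3 libraries with anti-PD-L1 against the 3 without, as values only. Over 66 gene-by-class pairs, the ranges did not overlap in 5 with the anti-PD-L1 libraries higher (7.58%, against 4.38% over all genes) and in 2 with them lower (3.03%, against 4.46%). Of the 5, 3 were Tlr2: 113 to 134 CPM against 76.3 to 90.9 in interferon-low monocytes, 115 to 136 against 80.5 to 90.7 in interferon-high monocytes, and 102 to 154 against 85.5 to 89.1 in C1q macrophages. Nlrp3 in neutrophils was at 1478 to 1862 CPM against 1272 to 1439, and Tlr3 in interferon-high monocytes at 11.2 to 17.3 against 6.91 to 10.9. The 2 lower pairs were both in type 2 dendritic cells, Aim2 at 114 to 147 CPM against 206 to 247 and Tlr3 at 5.85 to 9.78 against 13.9 to 18.9. Tlr3 levels were low in both pairs, and no counting interval was set beside them. In interferon-high monocytes its ranges came as close as 10.9 and 11.2 CPM. For Tlr2 the ranges overlapped in 4 classes, among them neutrophils (115 to 148 CPM against 81.3 to 131). Those of Nlrp3 and of Aim2 overlapped in 10 classes each. The classes come from the same mice, so the 3 pairs of Tlr2 are not separate results.

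**Figure D4:**
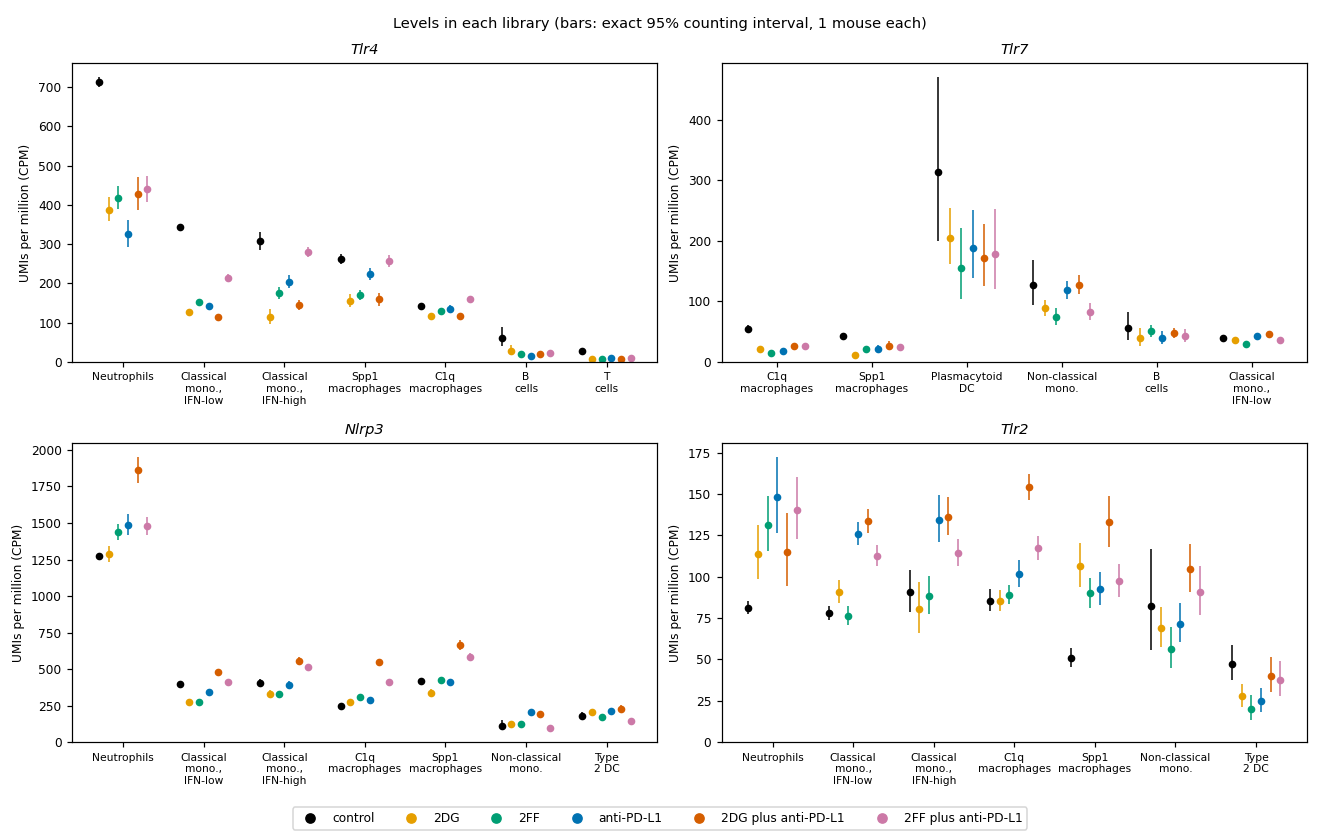
Levels of Tlr4, Tlr7, Nlrp3 and Tlr2 in each of the 6 libraries (y axis, CPM, with exact 95% counting intervals) by cell class (x axis). The control library is highest for Tlr4 in neutrophils (713 CPM) and for Tlr7 in C1q macrophages (54.7 CPM), and the 2DG plus anti-PD-L1 library for Nlrp3 in neutrophils (1862 CPM).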

How the data were processed

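RNA of single cells from 6 libraries, 1 mouse each, was counted with the 10x Genomics Chromium 3′ v3.1 chemistry. The values are UMI counts for each gene and barcode, which the authors deposited without normalization, with mm10 as the reference. The matrix headers name Cell Ranger 7.0.0, which counts intronic reads by default, and the submitters' processing notes name 3.1.0. Cells with under 250 genes or over 5% mitochondrial UMIs were left out here, which kept 51633 of 57078 barcodes.

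A cell took the class of which it held UMIs of at least 3 markers and the highest share of markers, and monocytes and macrophages took a subset in the same way. The 612 to 940 cells per library that met no gate were left out. So were 3884 monocytes and macrophages that met the gate of their lineage but no subset. None of the 9 genes was a marker. Doublets were not removed, and an alternative left out the cells with the highest Scrublet scores (0.8% per 1000 cells). The members, markers and lists were chosen with earlier results of these data known.

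UMIs of each class were added up in each library, and 70 sums of at least 20 cells were tested with edgeR 4.0.16 (R 4.3.3; TMM scaling, filterByExpr, terms for class and library, robust quasi-likelihood test, Benjamini-Hochberg adjustment over genes in each pair). The spread was estimated over 53 residual degrees of freedom. The library pairs the classes because its cells come from the same mouse. The fitting script was checked on simulated counts with known changes. Named were all 9 genes, 15 partner genes picked for their roles and the 10 others of the lists with the widest range of class means, ratios between libraries past 2-fold, and the most similar genes. Between libraries, the 2-fold limit and the median log2 ratios used CPM + 5 and at least 50 UMIs. Ratios printed with an interval are of CPM with nothing added. Shares of cells were computed as counted and after thinning to 1000 UMIs, over all draws. Depth limits low genes: 1 UMI is worth more CPM in a small class. Alternatives changed the scaling, test (DESeq2 1.42.0), filters, gates, libraries, block and pseudocount. Promoter windows came from RefSeq, positions from GENCODE M21. Scanpy 1.11.5 and SciPy 1.17.1 were used.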

Additional observations from a re-analysis of the deposited data

Results flagged for a closer look

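In 73 gene-by-class groups of 6 libraries, a library was marked where its gap to the nearest other was large for the whole range of the group (Dixon's criterion). Chance marks about 1 in 20 groups if they are independent, but these groups share the same 6 mice. No share of marked groups over all genes was set beside the count, so it cannot be read as particular to these genes. There were 8 such libraries, 6 of them the control. The control stood high for Tlr1 in neutrophils (26.6 CPM), Tlr4 in neutrophils (713 CPM), Tlr4 in type 2 dendritic cells (35.5 CPM), Tlr4 in B cells (60.4 CPM), Tlr7 in C1q macrophages (54.7 CPM) and Aim2 in mature migratory dendritic cells (91.1 CPM). The 2DG plus anti-PD-L1 library stood high for Nlrp3 in neutrophils (1862 CPM), and the 2FF library for Tlr1 in non-classical monocytes (33.0 CPM). The control library also held the most neutrophils (3565 of its cells), and the part of this in the marked levels outside neutrophils was not tested. The carried amounts given for Tlr4 rest on the assumption stated with them.

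In cell classes outside the comparisons, pooled over libraries, some of the genes lay above their level in T cells. Nlrp3 was at 655 CPM in mast cells and basophils (71 UMIs in 20 cells), against 20.3 CPM in T cells. Tlr4 was at 39.3 CPM in keratin-positive tumor cells (37 UMIs in 37 cells) and at 52.0 CPM in stromal cells (60 UMIs in 41 cells), against 8.62 CPM in T cells. Tlr3 was at 26.6 CPM in keratin-positive tumor cells (25 UMIs), against 0.557 CPM in T cells.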

How the results depend on the processing

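The number of calls of the sensor genes between classes, 330 of 528, was 322 with no replicate block (no library term), 325 with DESeq2 size factors, 323 by the DESeq2 Wald test, 351 with no filter on low counts (Tlr9 then tested too), 327 to 338 under other gates and without doublets, and 320 to 338 when each library was left out in turn. With the adjusted p alone it was 401. The pairing of classes by mouse thus moved the count by less than the fold limit did. Calls of the 52 partner genes, 1782, were 1748 to 1797 without single libraries and 1763 with DESeq2 size factors, and 2552 with the adjusted p alone. Each of the 8 differences between the first and the next class kept its direction and its side of the threshold under every other setting fitted, 112 values in all. Ratios between libraries depended on the settings more: 22 past 2-fold became 9 with 20 CPM added and 35 by the share of cells thinned to 1000 UMIs, and 17 to 32 under the others, with no named ratio reversed. Of the values of library ratios followed under other settings, 24 moved and 168 kept their side of the 2-fold limit. By the thinned share, for example, Tlr4 in neutrophils with anti-PD-L1 was -0.69 (log2) against control and no longer past 2-fold. With 1 mouse per treatment, differences between mice and between treatments cannot be told apart. Shares of cells with a UMI were at least 2 times those in T cells in 71 gene-by-class pairs at 1000 UMIs, 70 at 500 and 71 at 2000 and with all UMIs. Tlr9 and the plasmacytoid dendritic cells are limited by depth.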

Other observations

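Outside the myeloid cells and B cells, Aim2 was at 173 CPM in NK cells, and at 29.2 CPM in plasma cells, 24.4 in keratin-positive tumor cells and 28.6 in stromal cells, all pooled over libraries.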
